A study of Homo sapiens with 16 samples.

Results

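The expression of 7 BT474 tumours carrying the SHP2 miR1 hairpin was compared with that of 6 tumours carrying a control hairpin (CTRL miR). These 13 tumours are part of a series of 16, in which the other 3 carried a different hairpin against SHP2 (SHP2 miR2). BT474 is a human breast cancer line of the luminal type with amplified ERBB2 (HER2). The cells of every group, controls included, had been transduced with a lentiviral vector that makes its hairpin under doxycycline. They were placed in the fat pad of a mammary gland in immunodeficient mice, and the mice drank doxycycline at 2 g per liter from tumour formation to day 30, so the controls had the drug as well. The labels give neither the age and strain of the mice nor whether the transduced cells were a clone or a pool. The tumours were chosen by their titles, and the genes were those of every transcript cluster with 1 gene symbol, 18377 in all. A human array read 100 ng of total RNA from each tumour, so mouse RNA from the host can add signal where probes match it. Values are log2 signals, and a change of 1 is a doubling of the signal.

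SHP2, the product of PTPN11, is a tyrosine phosphatase. It docks through its SH2 domains on phosphorylated receptors and on adaptors such as GAB1, and its activity is needed for receptors such as HER2 and EGFR to switch on RAS and the kinases RAF, MEK and ERK. ERK in turn induces the ETS factors ETV4 and ETV5 and feedback inhibitors of its own pathway, the Sprouty proteins and the phosphatase DUSP6. These targets are therefore commonly read as a gauge of ERK activity.

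All 8 genes checked for BT474 identity (ERBB2, GRB7, KRT8, KRT18, KRT19, EPCAM, CDH1 and GATA3) had log2 signals of 7.97 to 11.82 in the 13 tumours, above the highest array median of 5.41. The results are touched by 2 features of the arrays. A large group of genes, described further on, was high in control tumours 1, 3, 4 and 6 alone, so changes are also given against control tumours 2 and 5 alone. That group includes markers of an embryonic kidney line, several of them listed after earlier results of these data were known. The identity of the samples labelled as control tumours 1, 3, 4 and 6 could not be checked with these data and is in doubt. What set these 4 tumours apart was not tested, and every change against all controls rests on them in part. The arrays also fell into 2 sets by their level of 5 noncoding RNAs. In set A were controls 1 to 3 with tumours 1 to 4 of the miR1 group. In set B were controls 4 to 6 with tumours 5 to 7 of the miR1 group, and all 3 miR2 tumours. Both sets hold both groups, and the labels say nothing of either feature. The labels number the tumours without tying them to animals, so p-values measure the spread between these tumours.

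The targeted gene, PTPN11 (transcript cluster 7958846), was lower in each of the 7 miR1 tumours than in any control. The log2 signal was 8.61, 8.23, 8.25, 8.49, 8.28 and 8.53 in control tumours 1 to 6. In miR1 tumours 1 to 7 it was 6.59, 6.82, 7.18, 6.90, 6.97, 7.03 and 7.0. The groups lay more than 1 log2 unit apart, miR1 tumour 1 was the lowest and miR1 tumour 3 the highest of its group. The means were 8.40 ± 0.16 (SD, n = 6) and 6.93 ± 0.19 (SD, n = 7), and the change was -1.47 ± 0.097 (SE, limma adjusted p = 5.11e-08), which leaves 36% of the control signal (95% interval 31.3% to 41.5%). An exact permutation test of the 13 tumours gave a two-sided p of 0.00117, the smallest it can give with 1716 permutations. The change was -1.33 against control tumours 2 and 5 (adjusted p = 6.03e-05), -1.49 within set A and -1.43 within set B.

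Across the genome 874 of 18377 genes (4.76%) differed between miR1 tumours and controls at an adjusted p below 0.05, the threshold used throughout. Of these, 253 (1.38%) were higher in miR1 tumours and 621 (3.38%) were lower. With each array centred on its median the split was 392 higher and 522 lower. A fall by more than 1 log2 unit was seen for 140 of the lower genes, and a rise of that size for 4 of the higher genes. The values of the 7 miR1 tumours lay wholly below those of the 6 controls for 102 genes (0.555%) and wholly above them for 137 (0.745%).

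Most of the genes called lower were high in 4 control tumours rather than in all 6. For 536 of the 621 lower genes, control tumours 1, 3, 4 and 6 were all above control tumours 2 and 5, an order that 3497 of all 18377 genes (19.0%) had. The median change of the lower genes was -0.66 against all controls and -0.11 against control tumours 2 and 5, where 117 of them had the opposite sign. The same controls stood apart in the other direction among the higher genes. For 118 of these 253 genes (46.6%) control tumours 1, 3, 4 and 6 were all below control tumours 2 and 5, an order that 3042 of all genes (16.6%) had. Their median change was 0.44 against all controls and 0.27 against control tumours 2 and 5, and the comparisons share those 2 controls and the 7 miR1 tumours.

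Against control tumours 2 and 5 alone, 25 genes were called (0.136%), 6 higher (0.0326%) and 19 lower (0.103%). That fit has 2 controls, singled out from these same profiles, and 1106 genes had an unadjusted p below 0.05 in it. The total against all controls also moved with single tumours. It was 382 without control tumour 1, 233 without control tumour 3, 273 without control tumour 4 and 262 without control tumour 6, but 1913 without control tumour 2 and 1766 without control tumour 5. Leaving out miR1 tumour 1, 2, 3 or 4 gave 544, 568, 550 or 519 genes.

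**Figure D1:**
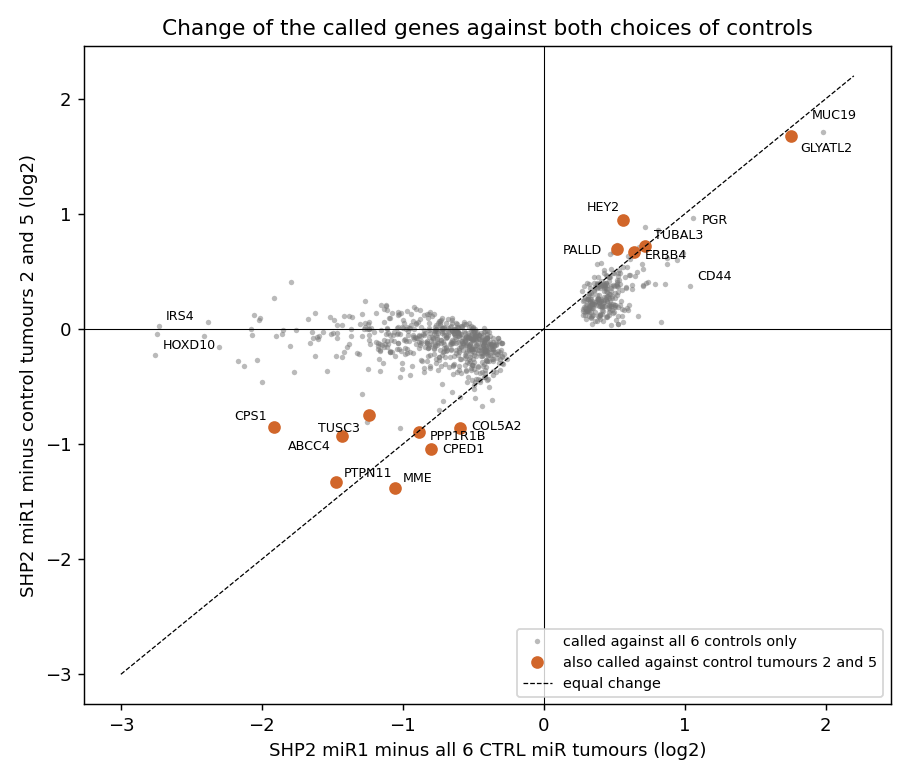
Log2 change of each of the 874 called genes in SHP2 miR1 tumours, against all 6 controls (horizontal axis) and against control tumours 2 and 5 (vertical axis). Orange points are the 13 genes called against both, and the dashed line marks equal changes. The falls spread along the horizontal axis with little change against control tumours 2 and 5, and the rises lie mostly between that axis and the dashed line.

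In all, 13 genes were called against both choices of controls, and the other genes called against all controls, named here or not, did not pass against control tumours 2 and 5. The 8 lower genes were PTPN11, CPS1, ABCC4, TUSC3, MME, PPP1R1B, CPED1 and COL5A2. The 5 higher genes were GLYATL2, TUBAL3, ERBB4, PALLD and HEY2. With the exception of HEY2 each remained called when any single control or miR1 tumour was left out.

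MME encodes neprilysin (CD10), a peptidase of the cell surface found on myoepithelial and stromal cells of the breast. Its log2 signal ran from 4.99 over a median of 5.58 to 5.85 in controls and from 4.26 over 4.51 to 4.67 in miR1 tumours. The groups did not overlap, and control tumours 2 and 5 were the highest controls, so the change was larger against these 2 (-1.38, adjusted p = 0.00257) than against all 6 (-1.05 ± 0.16, SE, adjusted p = 0.0018). COL5A2, a chain of fibrillar type V collagen, had the same order of controls, with 6.99 and 6.92 in control tumours 2 and 5, 6.54 to 6.60 in the other 4 and 5.96 to 6.33 in miR1 tumours. Its change was -0.59 ± 0.095 (SE, adjusted p = 0.00317). CPED1, a gene with little known function, ran from 5.64 to 6.42 in controls and from 5.06 to 5.66 in miR1 tumours, so the groups touched at control tumour 3 (change -0.80, adjusted p = 0.00389).

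ABCC4, CPS1 and TUSC3 showed 3 levels. ABCC4, a transporter that exports cyclic nucleotides and drugs from cells, had 6.86 to 7.14 in control tumours 1, 3, 4 and 6, then 6.30 and 6.24 in the other controls, tumours 2 and 5, and 5.18 to 5.53 with miR1. It fell by 1.43 against all controls and by 0.93 against control tumours 2 and 5. CPS1, the mitochondrial enzyme that feeds ammonia into the urea cycle, stood at 6.29 to 6.65, then 4.81 and 4.90, then 3.77 to 4.35. Its change was -1.91 ± 0.25 (SE, adjusted p = 0.000626) against all controls, and -0.85 (adjusted p = 0.0344) against the 2 controls of the middle level. TUSC3, which takes part in N-linked glycosylation in the endoplasmic reticulum, stood at 6.98 to 7.07, then 6.46 and 6.14, then 5.37 to 5.72. In each of the 3 genes every miR1 tumour lay below every control.

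PPP1R1B, which encodes the phosphatase inhibitor DARPP-32, lies in the 17q12 region near ERBB2 that is amplified in these cells. Its values were 6.01 to 6.50 in controls and 5.02 to 5.76 in miR1 tumours with no overlap, and control tumours 2 and 5 (6.17 and 6.47) lay within the range of the others. The change was -0.89 ± 0.12 (SE, adjusted p = 0.000626). Of 15 measured genes of the 17q12 amplicon it was the 1 gene called lower, beside 2 called higher, IKZF3 (0.44, adjusted p = 0.0124) and CDK12 (0.32, adjusted p = 0.0491). Of all genes 3.38% were called lower and 1.38% higher. Neither IKZF3 nor CDK12 passed against control tumours 2 and 5 (0.35, adjusted p = 0.688, and 0.11, adjusted p = 0.917). The CDK12 call was lost without any single one of control tumours 1, 3, 4 and 6 or of the 7 miR1 tumours (adjusted p up to 0.153). The median change of the amplicon list was 0.19 against all controls and -0.04 against control tumours 2 and 5, where 10 of 15 genes were below 0 and 0 were called higher, so no direction can be given for the list. ERBB2 itself differed by 0.20 ± 0.11 (SE, adjusted p = 0.35) and, against control tumours 2 and 5, by -0.025. Its log2 signal was 10.59 to 11.26 in controls and 10.91 to 11.31 in miR1 tumours.

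GLYATL2, an enzyme that joins glycine to fatty acids, rose by 1.76 ± 0.17 (SE, adjusted p = 1.88e-05), a 3.38-fold difference. Controls held 3.81 to 4.19 and miR1 tumours 5.13 to 6.26, around medians of 3.90 and 5.79. The rise was 1.68 against control tumours 2 and 5 (adjusted p = 0.00543), 1.70 within set A and 1.85 within set B. The control values lay near the lower quartile of the arrays (3.72 to 4.04). TUBAL3, an alpha-tubulin-like gene, rose by 0.72 ± 0.08 (SE, adjusted p = 8.82e-05) from 4.47 to 4.84 in controls to 5.25 to 5.56 in miR1 tumours.

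ERBB4, the HER4 receptor for neuregulins and a partner of HER2, rose with little spread within either group. Control tumours 1 to 6 had 6.93, 6.75, 6.67, 6.71, 6.63 and 6.63, and miR1 tumours 1 to 7 had 7.43, 7.34, 7.42, 7.36, 7.33, 7.41 and 7.25. No miR1 tumour fell within the range of the controls. The rise was 0.64 ± 0.082 (SE, adjusted p = 0.00043) against all controls and 0.67 against control tumours 2 and 5 (adjusted p = 0.0344). It was 0.60 within set A and 0.67 within set B.

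PALLD, which encodes the actin-bundling protein palladin, held 5.93 to 6.55 in controls and 6.56 to 7.04 in miR1 tumours. Its rise was 0.52 against all controls (adjusted p = 0.011) and 0.70 against control tumours 2 and 5. HEY2, a transcriptional repressor induced by Notch, rose by 0.56 (adjusted p = 0.0303) and by 0.95 against control tumours 2 and 5 (adjusted p = 0.033). Control tumour 1 (6.94) overlapped with miR1 tumours (6.86 to 7.28), and the call against all controls was lost without any of control tumours 3, 4 and 6 or miR1 tumours 2, 3, 4 and 7 (adjusted p up to 0.068).

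**Figure D2:**
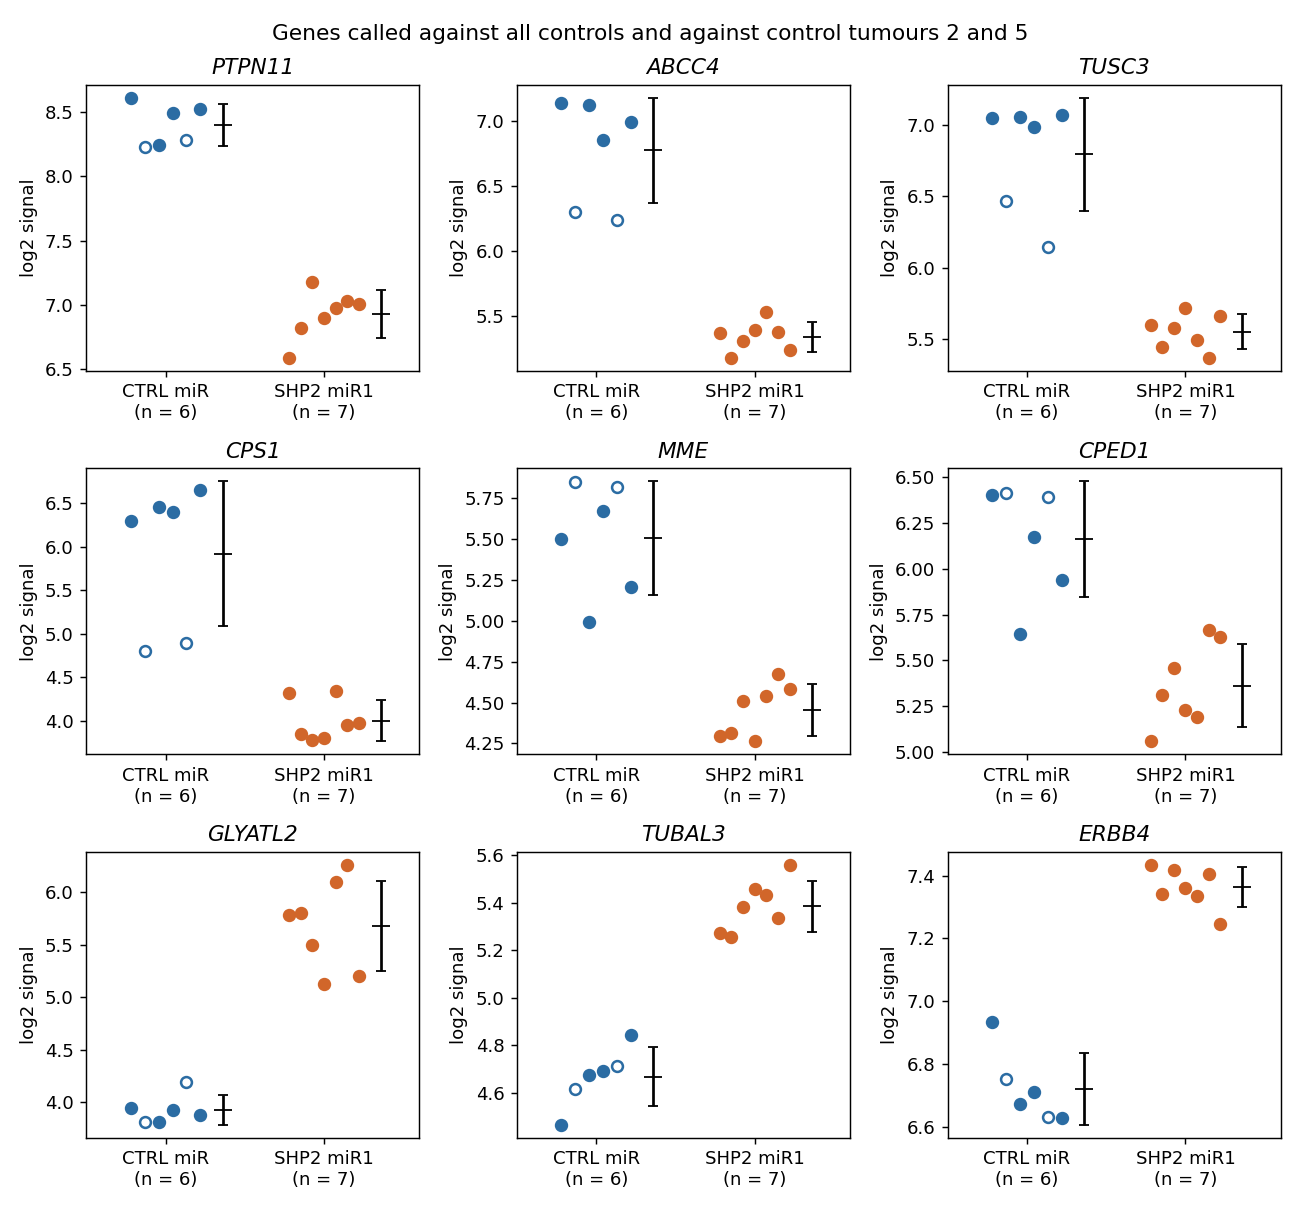
Log2 signal of 9 of the 13 genes called against both choices of controls, 1 point per tumour, with controls in blue and SHP2 miR1 tumours in orange. Hollow points are control tumours 2 and 5, bars show the mean and SD, and each vertical axis has its own range. ABCC4, TUSC3 and CPS1 show control tumours 2 and 5 between the other controls and the miR1 tumours.

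The 15 largest falls had a different pattern. They were HOXD10, RADX, IRS4, SLC6A15, SMARCA1, ECHDC1, DZIP1, DSC3, LRCH2, TMCO1, PYGL, NRN1, DYNC2H1, PRTFDC1 and HSPA4L, with changes from -2.76 to -2.0. Against control tumours 2 and 5 their changes ran from -0.46 to 0.13, and no adjusted p was below 0.677. HOXD10, a homeobox factor of posterior body patterning, had 7.49, 4.17, 7.83, 7.31, 3.43 and 7.78 in control tumours 1 to 6 and 3.27 to 3.90 in miR1 tumours. Its change was -2.76 ± 0.57 (SE, adjusted p = 0.013) against all controls and -0.22 (adjusted p = 0.893) against control tumours 2 and 5. IRS4, an adaptor of insulin receptor signalling expressed in few adult tissues, had 7.14 to 8.29 in control tumours 1, 3, 4 and 6, then 3.16 and 3.77 in the remaining controls, and 3.11 to 3.91 in miR1 tumours. In both genes control tumours 2 and 5 were near the level of the knockdown tumours, and most of these low values lay near or below the lower quartile of the arrays (3.72 to 4.04), so the size of the changes is uncertain. Of the 15 calls, 6 survived leaving out any single tumour (HOXD10, ECHDC1, DZIP1, DSC3, NRN1 and HSPA4L), and the other 9 were lost without at least control tumour 3 (adjusted p up to 0.0714).

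These genes include markers of an embryonic kidney line, and a list of such markers moved with them. The median change of its 16 measured genes was -1.08, against 0.018 over all genes. Of the 16 genes 11 were called lower and 0 higher, beside 3.38% and 1.38% of all genes. Several of them (IRS4, HOXD10, LIN28B, LRCH2, SMARCA1, PLS3 and ZEB1) were put on the list after earlier results of these data were known, so the count is no independent evidence. NEFL and INA, neurofilament genes of the same list, fell by 0.98 and 1.05 (adjusted p = 0.014 and 0.0116). They are no independent evidence either, because every list was chosen with earlier results of these data known. Against control tumours 2 and 5 the median of the list was 0.00 and 0 of 16 genes were called. The mean log2 signal of the 16 genes was 6.41 to 6.76 in control tumours 1, 3, 4 and 6, then 4.67 to 4.72 in the remaining controls, and 4.66 to 4.76 in miR1 tumours. The 8 markers of BT474 were high in these 4 tumours as well. What set the 4 tumours apart was not tested, and whether they hold only the cells that their labels name could not be checked with these data.

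Several genes known from the biology of SHP2 or of stem cells share this pattern. ZEB1, a factor that silences epithelial genes such as cadherin 1, changed by -1.0 (adjusted p = 0.0216) against all controls while the difference from control tumours 2 and 5 was 0.02 (adjusted p = 0.992). It stood at 5.41 to 5.85 in control tumours 1, 3, 4 and 6, then 4.16 and 4.02 in the other controls and 3.98 to 4.20 in miR1 tumours. LIN28B, which blocks the maturation of let-7 microRNAs, changed by -1.37 (adjusted p = 0.0198), with 3.98 to 4.90, then 2.24 and 2.31, then 2.16 to 2.41. The lower levels of LIN28B lay below the lower quartile of the arrays (3.72 to 4.04), so the size of its change is uncertain. Both calls were lost without any single one of control tumours 1, 3, 4 and 6 (adjusted p up to 0.072 and 0.0643). KIT, the receptor for stem cell factor, followed the same order (-0.74, adjusted p = 0.0311, and 0.01 against control tumours 2 and 5), and its call was lost without any of those 4 or miR1 tumours 1, 3, 4 and 5 (adjusted p up to 0.0969). Among 17 genes of epithelial-mesenchymal transition 3 were called lower (ZEB1, CDH2 and ITGA5) and 0 higher, beside 3.38% and 1.38% of all genes, with a median of -0.15 against all controls and 0.07, with 0 calls, against control tumours 2 and 5.

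**Figure D3:**
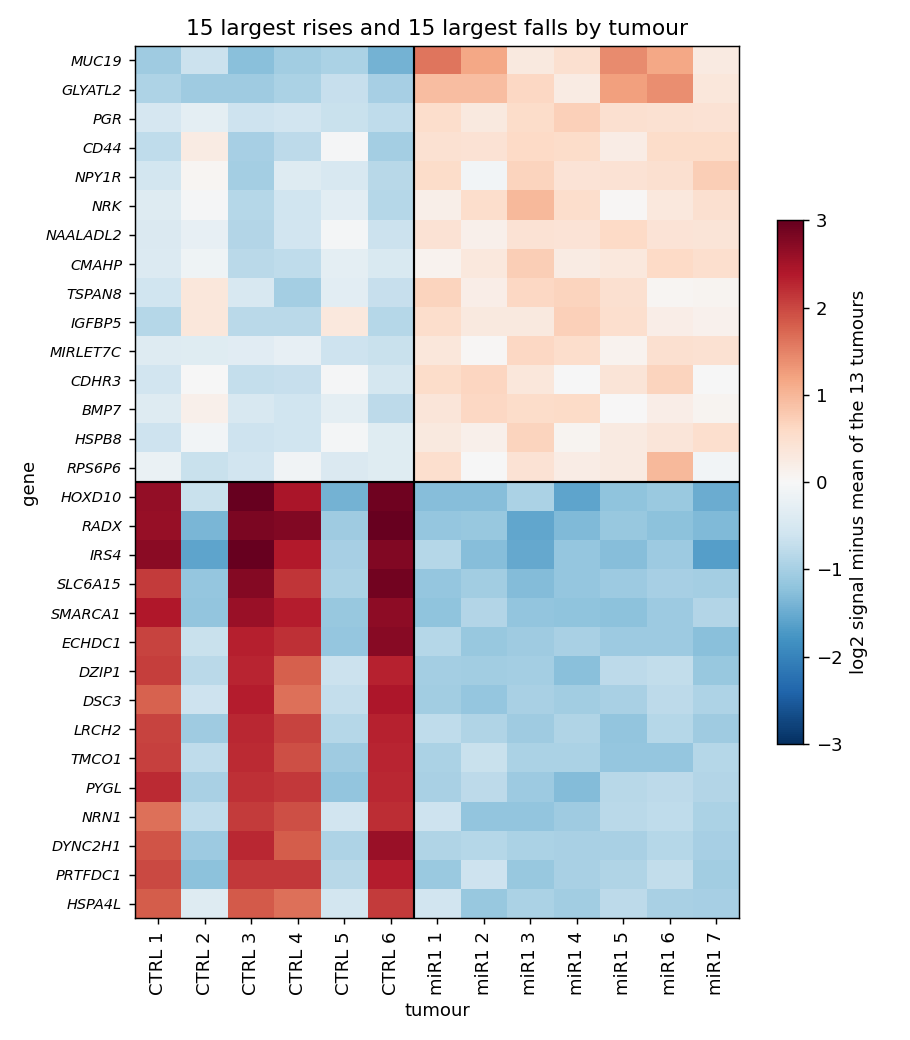
Log2 signal of the 15 largest rises (upper rows) and the 15 largest falls (lower rows) in each of the 6 control and 7 SHP2 miR1 tumours, as the difference from the gene's mean over the 13 tumours. Red is above and blue below that mean. In the lower rows control tumours 1, 3, 4 and 6 are red and control tumours 2 and 5 are blue like the miR1 tumours, and in the upper rows most miR1 values are red. Colours reach their limit at 3 log2 units.

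The largest rise was that of MUC19, which encodes a gel-forming mucin. Its log2 signal in control tumours 1 to 6 was 3.90, 4.32, 3.71, 3.92, 4.02 and 3.56. In miR1 tumours 1 to 7 it was 6.58, 6.12, 5.25, 5.46, 6.40, 6.13 and 5.24. Every miR1 tumour was above every control, with tumours 1, 2, 5 and 6 above tumours 3, 4 and 7. The rise was 1.98 ± 0.25 (SE, adjusted p = 0.000381), a 3.94-fold difference (95% interval of the log2 change 1.46 to 2.50), and 1.71 against control tumours 2 and 5, where it was not called (adjusted p = 0.0825). The control values lay around the lower quartile of the arrays (3.72 to 4.04), so the size of the rise and its rank are less sure than for genes with more signal. The same 4 tumours were the highest of the miR1 group for GLYATL2 (5.79 to 6.26 against 5.13 to 5.50 in tumours 3, 4 and 7). PTPN11 did not divide the tumours in this way: it was lowest in miR1 tumours 1 and 2, and in tumours 5 and 6 it lay within the range of tumours 3, 4 and 7.

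PGR, the progesterone receptor and a classic target of the oestrogen receptor, rose 2.08-fold. Controls had 8.04 to 8.52 around a median of 8.20, and miR1 tumours had 9.10 to 9.51 around 9.28. The groups were apart by more than the range of either. The change was 1.06 ± 0.14 (SE, adjusted p = 0.000626), with 0.99 within set A and 1.12 within set B. Against control tumours 2 and 5 it was 0.96, of nearly the same size but not called (adjusted p = 0.117).

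Other hormone-related genes rose less. ESR1, the oestrogen receptor, ran from 5.33 to 6.20 in controls and from 6.07 to 6.67 in miR1 tumours, with control tumours 1 and 2 inside the range of miR1 tumours. Its change of 0.58 ± 0.14 (SE, adjusted p = 0.0263) was no longer called without any single one of control tumours 3, 4 and 6 or miR1 tumours 1, 3 and 4 (adjusted p up to 0.0836). NPY1R, a neuropeptide Y receptor that oestrogen induces, had 4.60 to 5.68 in controls and 5.53 to 6.35 in miR1 tumours (0.99, adjusted p = 0.00387). Neither was called against control tumours 2 and 5 (ESR1 0.45, adjusted p = 0.728, and NPY1R 0.66, adjusted p = 0.496). Of 18 genes of the oestrogen response, 2 were called higher (PGR and MYBL1) and 0 lower, beside 1.38% and 3.38% of all genes. The call of MYBL1 (0.38, adjusted p = 0.0305) was lost without any of control tumours 1, 3, 4 and 6 or miR1 tumours 1, 3, 4 and 5 (adjusted p up to 0.0888). The median of that list was 0.21 against all controls and 0.05 against control tumours 2 and 5. GREB1, an oestrogen receptor cofactor and target, did not pass (0.36, adjusted p = 0.25). It was called without control tumour 2 (adjusted p = 0.042), while against control tumours 2 and 5 its difference had the opposite sign (-0.099, adjusted p = 0.949).

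CD44, the hyaluronan receptor, was 1.04 ± 0.17 (SE, adjusted p = 0.0038) higher in miR1 tumours. Control tumours 2 and 5 had 6.76 and 6.48, the other controls 5.50 to 5.76, and miR1 tumours 6.75 to 7.12, so that the rise against control tumours 2 and 5 was 0.38 and not called (adjusted p = 0.677). IGFBP5, a secreted binding protein for insulin-like growth factors, split the same way. It had 10.56 and 10.55 in control tumours 2 and 5, then 9.38 to 9.43 in the other 4 controls and 10.37 to 10.95 in miR1 tumours. Its change was 0.83 (adjusted p = 0.021) against all controls, 0.06 against control tumours 2 and 5, and not called without any of control tumours 1, 3, 4 and 6 (adjusted p up to 0.0705).

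The remaining large rises were NRK, NAALADL2, CMAHP, TSPAN8, CDHR3, BMP7, HSPB8 and RPS6P6, with changes of 0.72 to 0.94. HSPB8, a small heat shock protein, had 4.77 to 5.34 in controls and 5.48 to 6.06 in miR1 tumours (0.72 ± 0.11, SE, adjusted p = 0.00312). BMP7, a secreted growth factor of the TGF-beta family, had 8.13 to 9.07 and 8.92 to 9.54, with miR1 tumours 5 and 7 below control tumour 2 (0.74, adjusted p = 0.00736). Against control tumours 2 and 5 these 8 genes changed by 0.39 to 0.89, and 0 of 8 were called. RPS6P6 is a pseudogene of a ribosomal protein, and its probes may also read the parent gene.

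MIRLET7C, the gene of the microRNA let-7c, was among the 15 largest rises, and it is shown with its sequence because let-7 copies share a seed. A microRNA finds its targets by its seed, bases 2 to 8, in capitals here as RefSeq gives the mature forms (GRCh38.p14). For the 4 microRNA genes that were called, and for the neighbour of let-7c and a let-7 copy from elsewhere, the mature forms are these.
hsa-let-7c-5p: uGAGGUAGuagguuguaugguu
hsa-let-7a-5p: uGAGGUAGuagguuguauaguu
hsa-miR-99a-5p: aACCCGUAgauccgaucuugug
hsa-miR-181b-5p: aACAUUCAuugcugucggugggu
hsa-miR-27a-3p: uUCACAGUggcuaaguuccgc
hsa-miR-221-3p: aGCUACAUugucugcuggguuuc
The let-7c form lies on chromosome 21 at 16539838 to 16539859 on the plus strand, in the host transcript that also holds miR-99a, and shares its seed with let-7a.

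MIRLET7C had 2.78 to 3.21 in controls and 3.50 to 4.07 in miR1 tumours, with no overlap (0.81 ± 0.12, SE, adjusted p = 0.00269). Against control tumours 2 and 5 the change was 0.86 (adjusted p = 0.0825). The control values lay below the lower quartile of the arrays (3.72 to 4.04), and the probes read the precursor or host RNA, so the level of the mature form was not measured. MIR99A, from the same host transcript, changed by 0.28 (adjusted p = 0.0835). The other 8 let-7 genes, whose 5p forms all share the seed of let-7c-5p, changed by -0.10 to 0.28 with adjusted p-values of 0.43 to 0.952. Of 164 microRNA genes tested, 3 were called higher (MIRLET7C, MIR181B1 and MIR27A) and 1 lower (MIR221), which is 2.44%, below the share of all genes.

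Of 20 genes of ERK output 5 were lower in miR1 tumours, ETV5, ETV4, EPHA4, SPRY4 and SPRY2, and 0 were higher, where 3.38% of all genes were called lower. None of the 5 passed against control tumours 2 and 5. ETV4 had 5.84, 5.86, 5.92, 5.51, 5.36 and 5.21 in control tumours 1 to 6 and 5.15, 4.97, 5.12, 4.96, 4.75, 5.08 and 5.11 in miR1 tumours 1 to 7. All controls were above all miR1 tumours, narrowly in set B, and the change was -0.60 ± 0.12 (SE, adjusted p = 0.0116), with -0.83 within set A and -0.38 within set B. ETV5 had 5.12, 5.06, 5.15, 4.95, 4.65 and 4.84 in controls and 4.17, 4.46, 4.75, 3.99, 4.15, 4.24 and 4.39 in miR1 tumours. Across all arrays miR1 tumour 3 (set A) overlapped with control tumour 5 (set B), while within each set the groups did not overlap. The change of ETV5 was -0.65 ± 0.11 (SE, adjusted p = 0.00592), with -0.77 within set A and -0.55 within set B.

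SPRY4, a Sprouty inhibitor of the pathway, had 5.99 to 6.55 in controls and 5.21 to 6.03 in miR1 tumours. As with ETV5, the overlap lay between sets, and within set A (6.25 to 6.55 against 5.62 to 6.03) and within set B (5.99 to 6.11 against 5.21 to 5.85) the groups were apart. The change of SPRY4 was -0.51 ± 0.12 (SE, adjusted p = 0.0177). Without control tumour 1 or control tumour 3 it was no longer called (adjusted p up to 0.0537). EPHA4, an ephrin receptor, had 6.68 to 6.91 in controls and 6.07 to 6.45 in miR1 tumours without overlap (-0.49, adjusted p = 0.0116).

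DUSP6, the phosphatase that switches off ERK, did not pass (-0.37 ± 0.13, SE, adjusted p = 0.126). Controls held 7.0 to 7.33, whereas miR1 tumours varied from 6.30 to 7.33. MiR1 tumour 3, with the highest PTPN11 of its group, was level with the highest control for DUSP6, and without it the change was called (adjusted p = 0.0445). Within the miR1 group tumour 3 also had the highest ETV5 and SPRY4. ETV4 went otherwise, with its highest value (5.15) in miR1 tumour 1, which had the lowest PTPN11. MiR1 tumours 1 and 5 had the lowest DUSP6 (6.43 and 6.30).

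The median change of the 20 genes of ERK output was -0.13 over all controls, with 16 of 20 below 0, and -0.18 against control tumours 2 and 5, with 18 of 20 below 0 and 0 called. Of all genes 45.1% and 50.9% were below 0 in these comparisons, and the list was chosen with earlier results of these data known. The fall of SPRY2 (-0.71, adjusted p = 0.0217) was -0.13 against control tumours 2 and 5, whereas the changes of ETV4 (-0.59), ETV5 (-0.55), SPRY4 (-0.44) and EPHA4 (-0.52) were of similar size to the falls against all controls. The list of 16 components of the kinase cascade itself had 0 calls and a median of 0.06. Among 14 immediate-early genes 0 were called, and EGR1, an early growth response factor, differed by -0.49 (adjusted p = 0.143). Its groups overlapped, at 5.17 to 6.05 in controls and 4.51 to 5.57 in miR1 tumours.

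MYC and CCND1, which drive growth and entry into the cell cycle, did not pass in this comparison. MYC had 6.99 to 7.75 in controls and 6.96 to 7.52 in miR1 tumours (-0.23 ± 0.13, SE, adjusted p = 0.382). Control tumours 2 and 5 had its lowest control values, 7.14 and 6.99, and against them the difference was 0.17 (adjusted p = 0.906). Control tumours 1, 3, 4 and 6 had 7.61 to 7.75, above every miR1 tumour. The 95% interval against all controls was -0.51 to 0.05. It pools these 2 levels of the controls, so it sets no firm bound on the change of MYC. CCND1, cyclin D1, had 8.37 to 8.91 and 8.56 to 8.90 (0.08, adjusted p = 0.745, interval -0.12 to 0.29). Of 29 MYC targets of ribosome biogenesis and 34 cell cycle genes, 0 were called in either direction. Both medians were below 0 against all controls (-0.11 and -0.12, with 24 of 29 and 27 of 34 genes below 0). Against control tumours 2 and 5 they were above 0 (0.13 and 0.22, with 26 of 29 and 33 of 34 genes above 0). The mean log2 signal of the cell cycle list was 8.01 to 8.07 in control tumours 1, 3, 4 and 6, then 7.66 to 7.95 in miR1 tumours and 7.49 to 7.63 in control tumours 2 and 5. The direction of either list thus depends on the choice of controls, and no direction can be given.

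**Figure D4:**
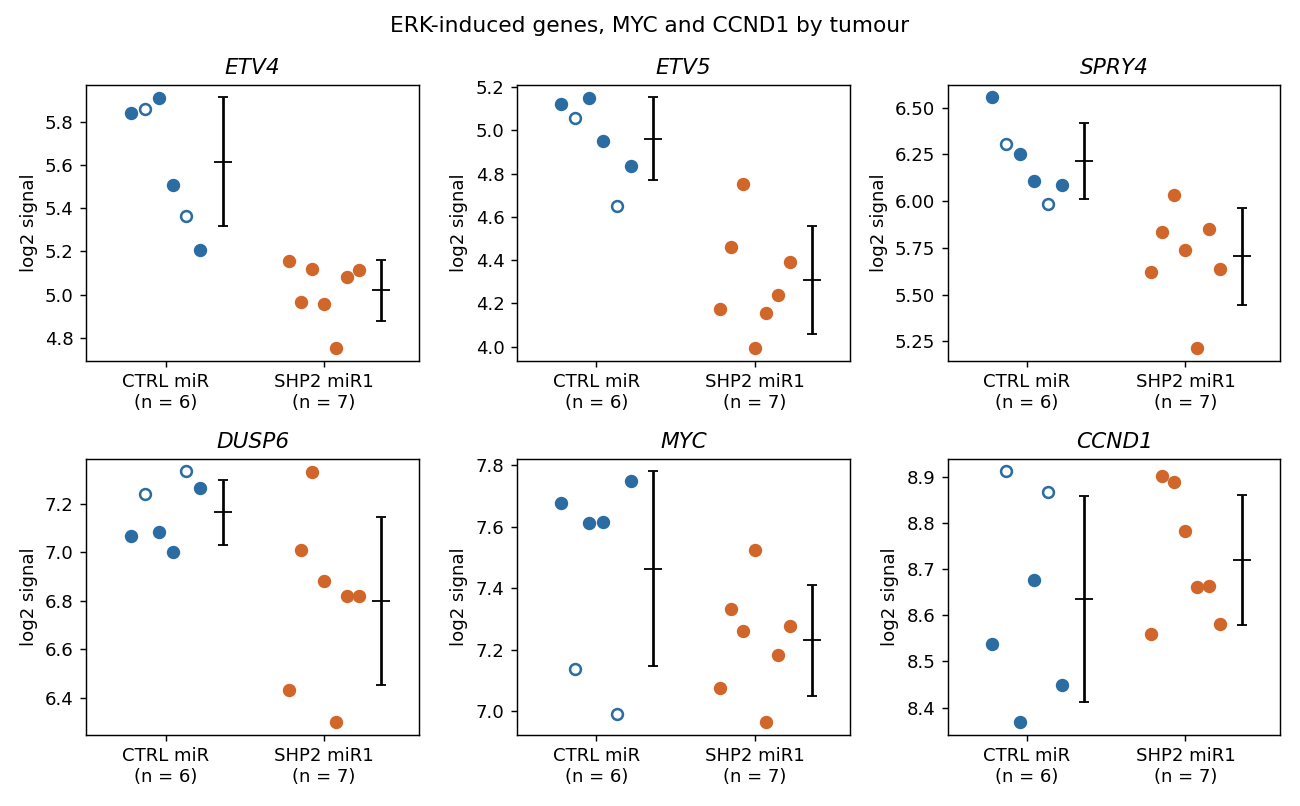
Log2 signal of ETV4, ETV5, SPRY4, DUSP6, MYC and CCND1, 1 point per tumour in the order of the tumour numbers from left to right within each group. Controls are blue (control tumours 2 and 5 hollow), SHP2 miR1 tumours are orange, and bars show the mean and SD. ETV4 shows no overlap, ETV5 and SPRY4 overlap through miR1 tumour 3, and DUSP6 through miR1 tumours 2 and 3. MYC overlaps through control tumours 2 and 5 alone, and CCND1 overlaps widely.

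Among 21 ERBB receptors, ligands and partners of SHP2, 2 were called higher, ERBB4 and TGFA, and 0 lower, beside 1.38% and 3.38% of all genes. TGFA, a ligand of EGFR, rose by 0.47 (adjusted p = 0.0133) from 4.89 to 5.38 in controls to 5.35 to 5.77 in miR1 tumours, and by 0.21 against control tumours 2 and 5 (adjusted p = 0.861). EGFR (0.40, adjusted p = 0.119) and ERBB3 (0.32, adjusted p = 0.176) did not pass. Both were called without control tumour 2, which had the highest control value of each (adjusted p = 0.0195 and 0.0255), and against control tumours 2 and 5 they differed by 0.10 and 0.015 (adjusted p = 0.948 and 0.993). GAB1, the adaptor that binds SHP2, differed by -0.16 (adjusted p = 0.242), and PTPN6, the related phosphatase SHP1, by 0.21 (adjusted p = 0.395). Of 32 receptor tyrosine kinases outside the ERBB family 5 were called lower (EPHA4, ROR1, FLT1, KIT and FGFR2) and 0 higher, beside 3.38% and 1.38% of all genes. The median of that list was 0.043, with 18 of 32 above 0, and EPHA4 was the member with a change of similar size against control tumours 2 and 5 (-0.52). The array gives no protein or phosphorylation level of any of these.

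Of 19 components of PI3K, AKT and mTOR signalling 2 were called higher and 0 lower, beside 1.38% and 3.38% of all genes. PIK3R1, the regulatory subunit p85 of PI3K, was 0.27 higher (adjusted p = 0.0483) with no overlap between the groups (7.50 to 7.71 and 7.76 to 8.0). That call was lost without any single tumour except control tumour 2 (adjusted p up to 0.117). INPP4B, a phosphatase that opposes PI3K, was 0.38 higher (adjusted p = 0.0246), a call lost without any of control tumours 1, 3, 4 and 6 or miR1 tumour 6 (adjusted p up to 0.0833). PIK3IP1, an inhibitor of PI3K listed among 16 FOXO targets, rose by 0.41 (adjusted p = 0.0227), a call lost without control tumour 3, 4 or 6 or miR1 tumour 4 (adjusted p up to 0.0736). SESN3 of the same list was 1.16 lower (adjusted p = 0.0133), but 0.19 lower against control tumours 2 and 5 (adjusted p = 0.906).

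Of 22 genes of luminal epithelial identity 3 were called higher, PGR, ESR1 and ELF3, and 0 lower. Beside this and the lists that follow stand 1.38% of all genes called higher and 3.38% called lower. The ELF3 call (0.51, adjusted p = 0.0375) was lost without any of control tumours 1, 3, 4 and 6 or miR1 tumours 1, 2, 3 and 6 (adjusted p up to 0.115). The median change of the list was 0.27 with 21 of 22 above 0 against all controls, and 0.03 with 12 of 22 above 0 against control tumours 2 and 5. Of 21 p53 targets 3 were called lower and 0 higher, among them the death receptor FAS, which changed by -1.04 against all controls (adjusted p = 0.013) and by -0.12 against control tumours 2 and 5. Of 33 interferon response genes 1 was called higher (HERC6) and 3 lower (HERC5, IFITM2 and IFIT5), and of these 4 calls that of HERC5 alone survived leaving out any single tumour (-1.02, adjusted p up to 0.0146; HERC6 up to 0.0718 without control tumour 3, 4 or 6; IFITM2 up to 0.0811 and IFIT5 up to 0.135 without any of control tumours 1, 3, 4 and 6 or several miR1 tumours). Against control tumours 2 and 5, 0 of the 33 interferon genes were called, HERC5 included. Leaving out 1 tumour cannot show whether a call rests on control tumours 1, 3, 4 and 6 together. Lists of mammary secretory genes, basal genes, hypoxia, lipid synthesis, unfolded protein response, antigen presentation, NF-kB, oxidative phosphorylation, JAK-STAT signalling and the BCL2 family had 0 calls against all controls.

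The lists for host cells gave few calls. All 13 measured markers of skeletal muscle were above 0 in miR1 tumours, with a median of 0.36 against all controls and 0.33 against control tumours 2 and 5, and 0 of 13 were called. The mean log2 signal of that list was 4.73 to 5.08 in controls and 4.73 to 5.90 in miR1 tumours. Lists for endothelial cells, lymphocytes and blood cells had 0 calls, and among 10 adipocyte genes PPARG was called lower (-0.84, adjusted p = 0.0218, and -0.04 against control tumours 2 and 5), a call lost without any of control tumours 1, 3, 4 and 6 (adjusted p up to 0.0736). LYZ, lysozyme of macrophages, rose by 0.48 (adjusted p = 0.0155), the 1 call among 15 macrophage genes, and was not called without control tumour 3 or 4 (adjusted p up to 0.0539). COL1A1 and COL1A2, chains of type I collagen made by fibroblasts, rose by 0.41 and 0.39 (adjusted p = 0.0485 and 0.0302), beside the fall of COL5A2. The COL1A1 call was lost without any tumour except control tumours 2 and 5 and miR1 tumour 5 (adjusted p up to 0.145), and that of COL1A2 without any of control tumours 1, 3, 4 and 6 or miR1 tumours 1, 3 and 7 (adjusted p up to 0.0874). In such bulk samples fewer cells of a type and less RNA per cell cannot be told apart, and the part of host cells in the results above was not tested.

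**Figure D5:**
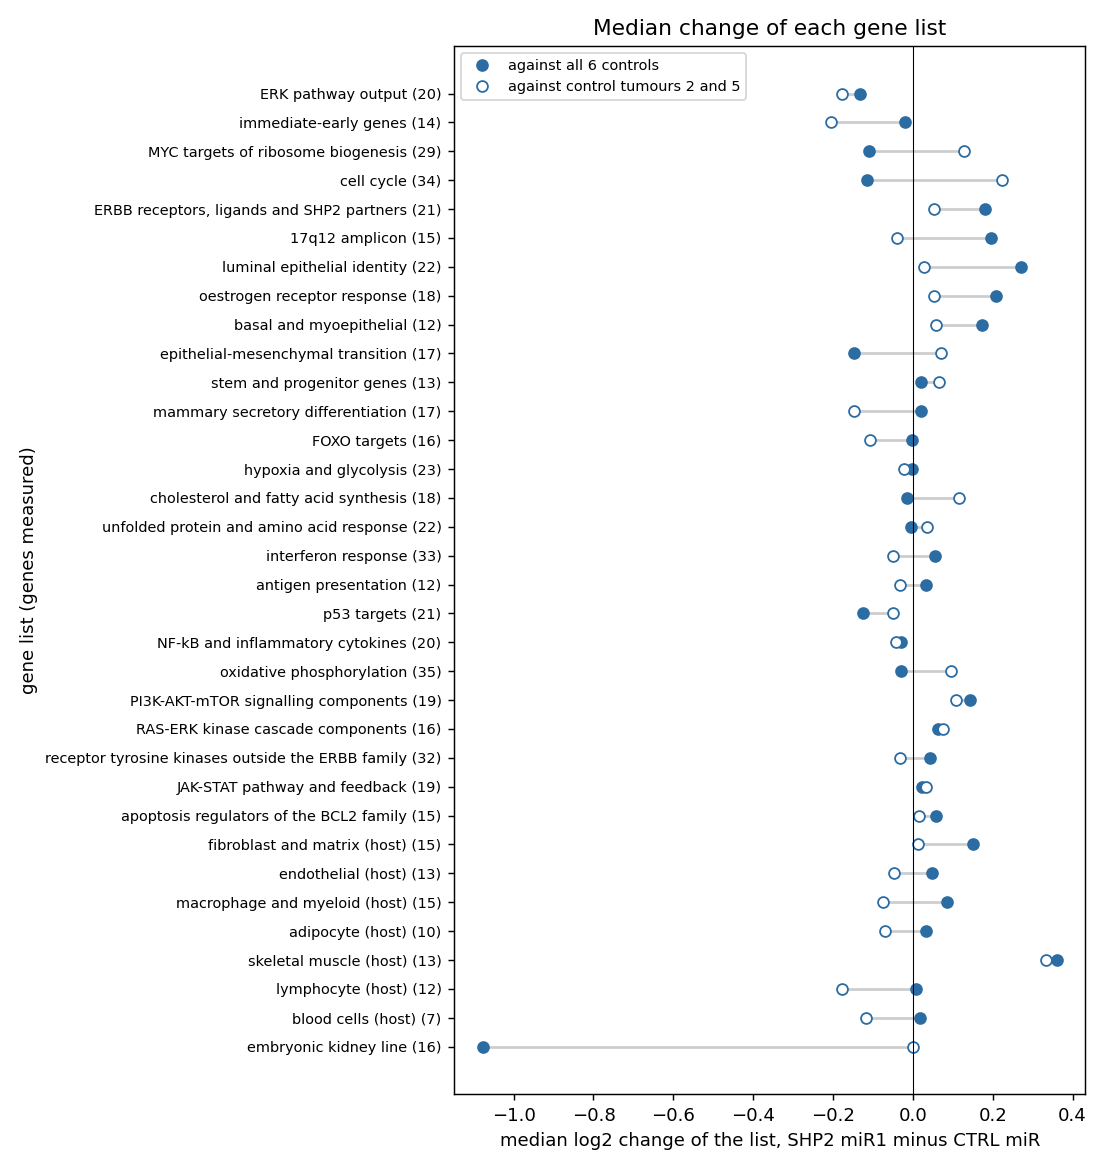
Median log2 change of each of the 34 gene lists in SHP2 miR1 tumours, against all 6 controls (filled) and against control tumours 2 and 5 (hollow), with the number of genes measured in brackets. The embryonic kidney line list moves from -1.08 to 0.00 between the choices of controls, ERK output stays below 0, and skeletal muscle stays above 0. Several other lists, among them p53 targets and PI3K-AKT-mTOR components, keep their sign as well.

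The hairpins against SHP2 gave unlike profiles. Between SHP2 miR1 and SHP2 miR2 tumours 4136 genes differed (22.5%), 2626 higher (14.3%) and 1510 lower (8.22%) with miR1. All 3 miR2 tumours lie in array set B, and within set B alone 972 genes differed. The total ran to 1659 without miR2 tumour 1 and 1310 without miR2 tumour 3. With quantile normalization it was 2901, with 1528 higher and 1373 lower with miR1. PTPN11 was 0.46 ± 0.12 (SE, adjusted p = 0.0115) higher with miR1, and 0.54 within set B (adjusted p = 0.0231).

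MYC was 2.14 ± 0.17 (SE, adjusted p = 5.08e-08) higher with miR1 than with miR2, whose 3 tumours had 4.73 to 5.28. The difference was 2.05 within set B (adjusted p = 0.000186). In step with this, 26 of 29 MYC targets and 29 of 34 cell cycle genes were higher with miR1 than with miR2 at the threshold. The background for that direction was 14.3%. DUSP6 was 1.22 higher with miR1 (adjusted p = 5.46e-05), and ETV5, at 4.01 to 4.30 with miR2, was not called between the hairpins (0.17, adjusted p = 0.383).

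PGR, which rose with miR1, was 3.49 higher there than with miR2 (adjusted p = 1.38e-10), where it had 5.26 to 6.51, below the controls. MME went the other way. It was 4.03 lower with miR1 than with miR2 (adjusted p = 7.16e-11), which had 8.08 to 9.07, above the controls. SLC6A14, an amino acid transporter, was 4.28 higher with miR1 (adjusted p = 6.06e-14), and GREB1 3.52 higher (adjusted p = 8.09e-10). Within set B these differences were 3.45 for PGR, -3.89 for MME, 4.41 for SLC6A14 and 3.25 for GREB1, each still called. HEY2, higher than controls with miR1, had 5.0 to 5.79 with miR2, below every control. CPED1, called lower with miR1, had 6.63 to 7.04 with miR2, above every control. PALLD, higher with miR1, had 5.50 to 5.63 with miR2, below every control. With miR2, PTPN11, CPS1, TUSC3, PPP1R1B and COL5A2 lay below every control, and GLYATL2 (narrowly), TUBAL3 and ERBB4 above, as with miR1. ABCC4 with miR2 (5.64 to 6.56) overlapped with the controls. The change of ERBB4 was alike in size, and its difference between the hairpins was -0.13 ± 0.10 (SE, adjusted p = 0.359).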

How the data were processed

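Total RNA of 16 tumours was read on Affymetrix Human Gene 1.0 ST arrays, per the labels' protocols. The authors deposited 1 table of values for 28869 transcript clusters. Its values run from 1.54 to 13.63 and are taken as log2 signals, and the submitters' processing notes name R 2.10 and oligo 1.8. How background was corrected and arrays were normalized is not given in the sources used here. Array medians were 5.21 to 5.41, and the number of arrays limits the precision.

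From the deposited log2 values, clusters with 1 gene symbol in the platform annotation were kept (19310, against 1752 with several and 7807 with none), and the cluster with the highest mean stood for each of 685 genes with more than 1. The 3 groups were fitted in limma 3.58.1 (R 4.3.3) over all 16 arrays, with Benjamini-Hochberg adjustment over 18377 genes and calls at an adjusted p below 0.05. No value was filtered in that fit. It was checked on simulated data with independent noise and no division among the controls, so that check does not cover the division seen here. The 2 array sets were read from 5 noncoding RNAs, and the division of the controls from their profiles. Alternatives changed the normalization, centring, filter, features, variance model, arrays, controls, array set, replicate block and single tumours.

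Genes were named by a rule: PTPN11, a panel of SHP2-related genes, the 15 largest called rises and falls, at most 12 in each direction called against both choices of controls, the 6 largest differences from miR2 in each direction, and at most 4 genes of each of 34 lists with the smallest adjusted p. SPRY2, and genes named in the closing section, were named after their values were seen. The comparison, panel and lists were chosen with earlier results of these data known. Sequences are from RefSeq.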

Additional observations from a re-analysis of the deposited data

Results flagged for a closer look

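Among 114 groups of values checked (57 genes in 2 groups), 3 held a tumour far from the others of its group, where chance gives about 1 in 20. CD44 was 6.75 in miR1 tumour 5, against 6.97 to 7.12 in the other 6 miR1 tumours. GLYATL2 was 4.19 in control tumour 5, against 3.81 to 3.94 in the other controls, and every miR1 tumour was still above it. NPY1R was 5.53 in miR1 tumour 2, against 6.03 to 6.35 in the other miR1 tumours.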

How the results depend on the processing

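The 874 calls became 3371 with array weights, 25 against control tumours 2 and 5, 41 there with the array set as a block (an alternative chosen after seeing the data), 10 within set A and 1 within set B, and ran from 233 to 1913 without single tumours; sets and reduced controls have fewer samples. Within set A 2646 genes and within set B 1701 had an unadjusted p below 0.05. The other settings gave 603 to 1225. The replicate number as a block gave 745. The numbers were not treated as pairing the tumours: correlations of same-numbered deviations ran from -0.302 to 0.369, and 3 of 6 controls correlated best with their own number. The 4136 differences between hairpins became 6773 with the replicate block, 972 within set B and 1310 to 5923 without single tumours. They became 7180 with array weights and 2523 with the array set as a block. Quantile normalization gave 2901, of which 1528 were higher and 1373 lower with miR1, so their number and split depend on the normalization. The remaining settings gave 2784 to 5115. Among the genes named in the report, signs turned against control tumours 2 and 5, given without and then with the array set as a block, for genes that include GREB1 (-0.099, -0.13), FGFR2 (0.05, 0.059), MYC (0.17, 0.16), CCND1 (-0.17, -0.18), ERBB2 (-0.025, -0.043), PTPN6 (-0.078, -0.10), ZEB1 (0.016, 0.021), IRS4 (0.028, 0.031), SMARCA1 (0.065, 0.069), PYGL (0.13, 0.13), DYNC2H1 (0.077, 0.079), PRTFDC1 (0.094, 0.10) and KIT (0.0059, 0.012). They also turned for LRCH2 without the block (0.0021), for ERBB3 with it (-0.012) and for CCND1 within set B (-0.029). The cause was not tested.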

Other observations

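Against control tumours 2 and 5 alone, 12 genes were called that did not pass against all 6 controls, 11 lower and 1 higher in miR1 tumours. Of 17 genes on a list of mammary secretory differentiation, 2 were among them (SCGB2A2 and PIP), both lower, and that list had 0 calls against all controls. KLK2 and KLK3, kallikrein proteases induced by the androgen receptor, had 8.10 and 7.85, and 7.21 and 6.91, in control tumours 2 and 5. In the other 4 controls KLK2 had 4.86 to 5.46 and KLK3 4.78 to 5.07, and in miR1 tumours they had 5.13 to 6.02 and 5.13 to 5.58. The changes were -2.45 and -1.71 against control tumours 2 and 5 (limma adjusted p = 1.5e-06 and 2.1e-05), and -0.56 and -0.31 against all controls (adjusted p = 0.557 and 0.699). Control tumours 2 and 5 were singled out from these same profiles. For genes that differ between the controls, the p-values against these 2 tumours are therefore no independent evidence of a change with miR1.

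SCGB2A2 (mammaglobin A), a secreted protein of breast epithelium, had 9.54 and 9.56 in control tumours 2 and 5, then 8.04 to 8.32 in the other controls and 8.18 to 9.05 in miR1 tumours. PIP, the prolactin-induced protein, had 7.11 and 6.82, then 4.97 to 5.33 and 5.27 to 6.37. MUC2, a gel-forming mucin like MUC19, was lower against control tumours 2 and 5 (-1.26, adjusted p = 3.66e-05), while MUC19 was higher against all controls. SGK1, a kinase induced by glucocorticoids, was lower by the same comparison (-1.21, adjusted p = 0.00472), as were MYBPC1, CYP4F8, RGS2, EMP1 and F3, and NPR3 was higher (0.92, adjusted p = 0.0344). In these genes, NPR3 included, control tumours 1, 3, 4 and 6 lay on the same side of control tumours 2 and 5 as the miR1 tumours.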
